A study of Mus musculus with 6 samples.

Results

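The Nrf2 antioxidant genes described here are 10 genes chosen by name: Nfe2l2, which encodes the transcription factor Nrf2, its inhibitor Keap1, and the target genes Hmox1, Nqo1, Gclc, Gclm, Srxn1, Txnrd1, Slc7a11 and Osgin1. All 10 were found among the 54532 genes of the count table, and 7 of them were among the 13352 genes counted highly enough to be tested. AE9a leukemia cells of C57BL/6 mice were profiled by RNA-seq, with 3 libraries from central bone marrow (CBM) and 3 from endosteal bone marrow (EBM). AE9a is a spliced form of the AML1-ETO fusion protein, brought by retrovirus into c-Kit+ progenitors that were then passed through mice, and the cells sequenced came from the third generation of transplanted animals. CBM cells were flushed out of femurs and tibias, and EBM cells were released from the flushed bones with collagenase I, so that region and digestion coincide in all libraries and cannot be told apart. The labels list no drug or engineered deletion for either group. They give neither the age of the mice nor whether libraries came from separate mice, and p-values then measure only the spread between these libraries.

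In unstressed cells the adaptor protein Keap1 brings Nrf2 to a CUL3 and RBX1 ubiquitin ligase, which marks it for degradation, so Nrf2 activity is set largely at the protein level. Oxidants and electrophiles modify cysteines of Keap1, Nrf2 then accumulates, pairs with a small MAF protein and binds the antioxidant response element near its target genes, a site for which the repressor BACH1 competes. The targets make glutathione, reduce thioredoxin, detoxify quinones and break down heme, and the pathway is known in blood stem and progenitor cells for limiting reactive oxygen.

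Each library held 16436526 to 19462964 counts, and 3 counts, the floor used here, came to 0.149 to 0.193 CPM, a unit of counts relative to the TMM-scaled library size. Such floors reflect counting error alone. Where 3 values are given for a region, they stand in the order of replicates 1, 2 and 3. The first principal component held 53.0% of the variance of log2 CPM and placed CBM replicate 1 and EBM replicates 1 and 2 on one side, CBM replicate 3 near the middle and CBM replicate 2 and EBM replicate 3 on the other side. Of the markers of the labelled cells, Kit, the receptor by which the transduced progenitors were chosen, had between 3046 and 4513 counts, and the progenitor transcription factor genes Myb and Runx1 had 4851 to 6200 and 5767 to 12694. The others were lower, with 19 to 297 counts for Cd34, 29 to 643 for the myeloid enzyme gene Mpo and 2 to 68 for Ptprc, which encodes the leukocyte antigen CD45. The 8 erythroid markers summed to between 2454 and 7879 CPM in CBM and between 3003 and 6145 CPM in EBM. The 10 macrophage markers summed to at most 9.95 CPM, the 8 markers of osteoblasts and stroma to at most 1.89 CPM with Alpl at 0 in all libraries, the 5 endothelial markers to at most 3.37 CPM with Emcn at 0, and the 6 lymphocyte markers to at most 3.06 CPM with Ms4a1 at 0. In bulk RNA, fewer cells of a type and less RNA per cell cannot be told apart.

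The core of the antioxidant response element, TGACNNNGC, was searched on both strands of the RefSeq promoters of build GRCm38.p6, which run from 250 bases before to 50 bases after each transcript start. Of the 10 genes 8 had a promoter there, and 4 of these 8 held a match, against 14.0% of all 27025 genes with a promoter in the table. The matches are shown because they are the letters through which the factor of this gene group is known to act, and a match is a description, not a shown binding site. They are printed on the strand of the gene with 10 bases on each side, and capitals mark the core or its reverse complement.
Nfe2l2: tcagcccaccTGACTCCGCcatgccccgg
Gclm: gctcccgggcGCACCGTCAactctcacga
Srxn1: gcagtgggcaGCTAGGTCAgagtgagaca
Txnrd1: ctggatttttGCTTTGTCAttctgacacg
These lie at chr2:75704885-75704913 on the minus strand for Nfe2l2, and on the plus strand at chr3:122245413-122245441 for Gclm, chr2:152105542-152105570 for Srxn1 and chr10:82859104-82859132 for Txnrd1, the last in 1 of its 3 promoters. Keap1, Nqo1, Slc7a11 and Osgin1 held no such letters in this window, which says nothing about binding outside it. Promoters of Hmox1 and Gclc were not used here.

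In RNA, Nfe2l2 was higher and Keap1 lower in every EBM library than in any CBM library, neither past the adjusted threshold. Such a separation was found upward for 7.47% and downward for 7.65% of all tested genes. The target genes showed no shared direction between the regions. By edgeR's quasi-likelihood test none of the 7 tested genes had an adjusted p under 0.05, and of all 13352 genes 0, or 0%, did. Without adjustment 1056 genes were under 0.05. DESeq2 gave 175 genes past the adjusted threshold, none of them among the 10, of which Srxn1, Osgin1 and Slc7a11 got no adjusted p there. The 7 divided into 3 with higher and 4 with lower levels in EBM (median log2 fold change -0.15), where all tested genes divided into 50.4% higher and 49.6% lower with a median of 0.00. This split rested on CBM replicate 2, since without this library 6 of the 7 were higher in EBM and the median was 0.06.

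Nfe2l2 (ENSMUSG00000015839, chromosome 2, 75675513 to 75704641 on the minus strand of GRCm38) encodes the activator itself. Its level was 85.4, 95.9 and 73.5 CPM in CBM against 115, 112 and 130 CPM in EBM. The 3 EBM libraries all exceeded the 3 CBM libraries, which 7.47% of all tested genes also did. A two-sided exact permutation test gave p = 0.1, and no lower p can be reached with 3 libraries against 3. Mean levels were 84.9 ± 11.2 CPM (CBM) and 119 ± 9.55 CPM (EBM; SD, n = 3 each), or 1.40-fold apart. On the log2 scale the difference was 0.49 ± 0.12 (standard error), with a 95% interval from 0.19 to 0.78 (edgeR unadjusted p = 0.00595, adjusted p = 0.361). The difference kept its direction in all 12 alternative analyses, with log2 fold changes between 0.40 and 0.59 and adjusted p-values from edgeR or DESeq2 between 0.0943 and 0.985. Because every EBM library lay above every CBM library, leaving out 1 library could hardly turn the direction, so those fits are no further result on it.

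Keap1 (ENSMUSG00000003308, chromosome 9, 21229730 to 21239361, minus strand) encodes the inhibitor that holds Nrf2 for degradation. It had 85.9, 90.9 and 94.2 CPM in CBM against 72.3, 66.8 and 83.9 CPM in EBM. The ranges did not overlap, but EBM replicate 3 came within a few CPM of CBM replicate 1 (two-sided exact permutation p = 0.1). An EBM range wholly below the CBM range was found for 7.65% of all tested genes. On the log2 scale the difference was -0.28 ± 0.11 (standard error), with an interval from -0.54 to -0.02 (edgeR unadjusted p = 0.0382, adjusted p = 0.596). With DESeq2 the unadjusted p was 0.0597, and it was above 0.05 in 5 of the 6 edgeR fits that left out 1 library, the exception being the fit without EBM replicate 3. Reads of an antisense gene, Gm16754, that overlaps Keap1 numbered between 44 and 108 per library, and whether counting used the strand is not given in the sources used here.

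Per base of gene length, the ratio of Nfe2l2 to Keap1 was 1.23, 1.30 and 0.965 in CBM against 1.97, 2.08 and 1.92 in EBM. The ratio, which does not depend on library scaling, was thus 1.17 ± 0.178 in CBM and 1.99 ± 0.0844 in EBM (SD, n = 3 each), with no overlap. The ratio was formed after both genes' values had been seen and is given as a description. Because Nfe2l2 was higher and Keap1 lower in every EBM library, the ratio had to separate the regions, so the lack of overlap is no further result.

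**Figure D1:**
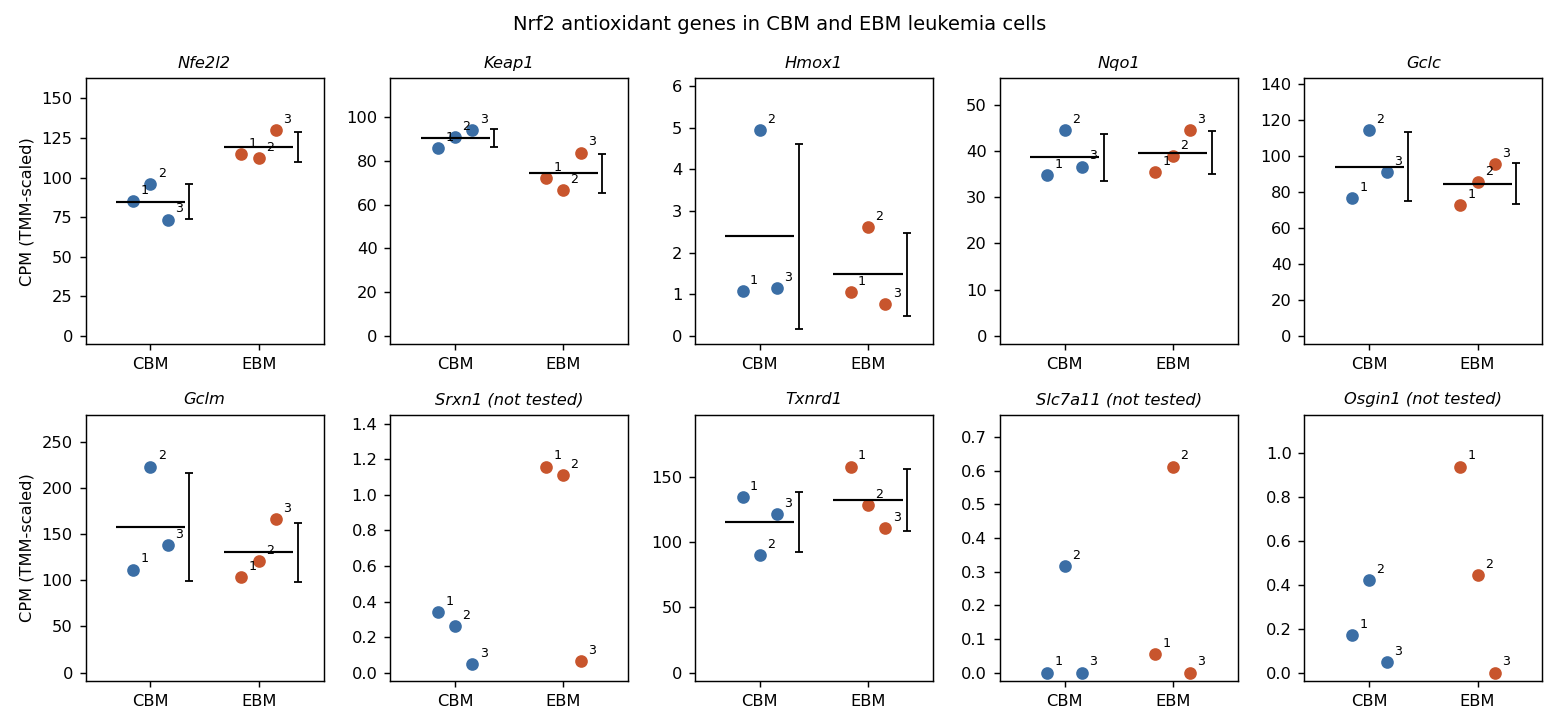
Level of each of the 10 genes in CPM (y axis, a scale for each panel) in CBM (blue) and EBM (orange), where a point is a library numbered by its replicate and, for the 7 tested genes, lines are means and bars SDs (n = 3). Only Nfe2l2, higher in EBM, and Keap1, lower in EBM, have ranges that do not overlap between the regions, and Gclm, Gclc and Hmox1 are highest in CBM replicate 2.

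Glutathione synthesis begins with glutamate-cysteine ligase, of which Gclc encodes the catalytic subunit and Gclm the modifier subunit. Gclm (ENSMUSG00000028124, chromosome 3, 122245557 to 122270732, plus strand) was measured at 112, 223 and 138 CPM in CBM against 104, 121 and 166 CPM in EBM. The highest library was CBM replicate 2 and the next EBM replicate 3, so the regions overlapped. Mean levels were 157 ± 58.3 CPM (CBM) and 130 ± 32.4 CPM (EBM; SD, n = 3 each), for a log2 fold change of -0.28 and an interval from -0.96 to 0.41 (edgeR adjusted p = 0.915). Without CBM replicate 2 the log2 fold change was 0.06. An overlapping gene on the other strand, Gm17494, had between 44 and 104 counts, against 1878 to 4236 for Gclm.

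Gclc (ENSMUSG00000032350, chromosome 9, 77754535 to 77794485, plus strand) took the same order of libraries from lowest to highest as Gclm. It had 76.4, 114 and 91.0 CPM in CBM against 72.6, 85.2 and 95.4 CPM in EBM. The regions overlapped, and the log2 fold change was -0.15 with an interval from -0.57 to 0.26 (edgeR adjusted p = 0.924), or 0.01 without CBM replicate 2. Per base of gene length the ratio of the modifier to the catalytic subunit lay from 0.874 to 1.17 in CBM and from 0.847 to 1.04 in EBM, with CBM replicate 2 and EBM replicate 3 as the libraries above 1. Slc7a11 (ENSMUSG00000027737), the chain of the cystine transporter that feeds this pathway, had 0, 6 and 0 counts in CBM against 1, 11 and 0 counts in EBM. It passed the floor of 3 counts in CBM replicate 2 and EBM replicate 2 and was not tested.

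Txnrd1 (ENSMUSG00000020250, chromosome 10, 82833951 to 82897712, plus strand) encodes the cytosolic reductase that recharges thioredoxin with NADPH. Its levels were 134, 89.7 and 121 CPM in CBM against 158, 128 and 111 CPM in EBM. The lowest library was CBM replicate 2 and the next EBM replicate 3, the libraries in which Gclm was highest. The log2 fold change was 0.20 with an interval from -0.25 to 0.65 (edgeR adjusted p = 0.898), and without CBM replicate 2 it was 0.05. The overlapping gene Eid3 on the same strand had between 32 and 63 counts, against 1703 to 2854 for Txnrd1. Set per base of length against Txnrd1, Gclm had ratios of 0.937, 2.80 and 1.28 in CBM against 0.741, 1.06 and 1.69 in EBM. Both are textbook targets of Nrf2, and their ratio varied more within a region than between the regional means of 1.67 and 1.16.

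Srxn1 (ENSMUSG00000032802, chromosome 2, 152105516 to 152111376, plus strand) encodes sulfiredoxin, which repairs overoxidized peroxiredoxins. It had 6, 5 and 1 counts in CBM against 21, 20 and 1 counts in EBM. Both replicates 1 and 2 of EBM lay above all CBM libraries and EBM replicate 3 did not, so the ranges overlapped. Osgin1 (ENSMUSG00000074063), an oxidative stress-induced growth inhibitor, had 3, 8 and 1 counts in CBM and 17, 8 and 0 in EBM, again with the highest value in EBM replicate 1. Neither gene passed the filter on low counts. When every gene with at least 1 count was tested, Srxn1 had a log2 fold change of 1.84 (edgeR unadjusted p = 0.0601, adjusted p = 0.819), and Osgin1 and Slc7a11 had adjusted p-values of 0.819 and 0.877 there.

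Nqo1 (ENSMUSG00000003849, chromosome 8, 107388225 to 107403206, minus strand) encodes a quinone reductase often used as the readout of Nrf2 activity. It was the least variable of the tested genes across libraries, with 34.8, 44.4 and 36.6 CPM in CBM against 35.4, 38.9 and 44.5 CPM in EBM. Its highest library was 1.28-fold above its lowest, and 79.5% of all tested genes had at least as wide a range. The log2 fold change was 0.04 with an interval from -0.30 to 0.37 (edgeR adjusted p = 0.988), and its sign turned when counts were scaled by library size alone, to -0.036, without CBM replicate 1, to -0.031, and without EBM replicate 3, to -0.064.

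Hmox1 (ENSMUSG00000005413, chromosome 8, 75093621 to 75100589, plus strand) encodes heme oxygenase 1, which opens the heme ring and is held down by BACH1. It was counted 19, 94 and 23 times in CBM against 19, 47 and 12 times in EBM. Replicate 2 stood above the others in both regions, at 4.95 CPM in CBM and 2.62 CPM in EBM, while the remaining libraries lay between 0.771 and 1.14 CPM. The highest library was 6.42-fold above the lowest, a range that 4.73% of all tested genes matched or exceeded. The log2 fold change was -0.68 with a wide interval, from -2.44 to 1.07 (edgeR adjusted p = 0.923), and it turned to 0.42 without CBM replicate 2.

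**Figure D2:**
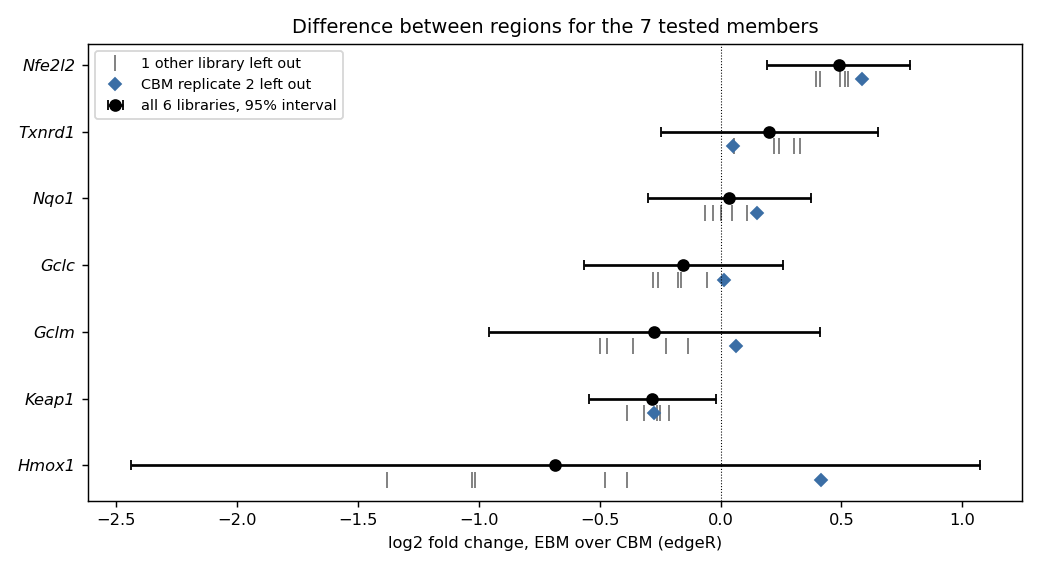
Log2 fold change of EBM over CBM (x axis) for the 7 tested genes (y axis), as a black point with its 95% interval from edgeR, with grey ticks for fits that leave out 1 library and a blue diamond for the fit without CBM replicate 2. The intervals of Nfe2l2 and Keap1 lie on one side of 0, and Hmox1, Gclm and Gclc cross from below to above 0 without CBM replicate 2.

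Per kilobase of gene length, the 10 genes fell into an abundant and a scarce group. Averaged over the 6 libraries, Nfe2l2 had 26.9 ± 5.52 CPM per kilobase, Nqo1 25.2 ± 2.82, Gclc 23.7 ± 3.98, Gclm 22.9 ± 7.11, Keap1 17.5 ± 2.28 and Txnrd1 17.4 ± 3.22 (SD, n = 6). Among these 6 genes each gap to the next was smaller than the SD of the upper gene, and the order between neighbours held in 3 to 5 of the 6 libraries. Hmox1 followed at 1.10 ± 0.922 CPM per kilobase, below Txnrd1 in all 6 libraries. Srxn1, Osgin1 and Slc7a11 had 0.177, 0.126 and 0.0118 CPM per kilobase, and Srxn1 and Osgin1 did not differ beyond their spread.

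Across libraries the genes moved in more than 1 way, as the map of centred levels shows. With each gene's mean over the 6 libraries subtracted, Gclm was at -0.31, -0.42 and -0.20 (log2 CPM) in CBM replicate 1 and EBM replicates 1 and 2 and at 0.68 and 0.26 in CBM replicate 2 and EBM replicate 3. Txnrd1 ran the other way, at 0.14, 0.37 and 0.08 in the former and at -0.44 and -0.14 in the latter libraries. CBM replicate 2 had the highest level of 3 of the 7 tested genes, Hmox1, Gclc and Gclm, beside 22% of all tested genes. The mean of the 7 centred levels was 0.36 in this library and between -0.17 and 0.06 in the others.

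**Figure D3:**
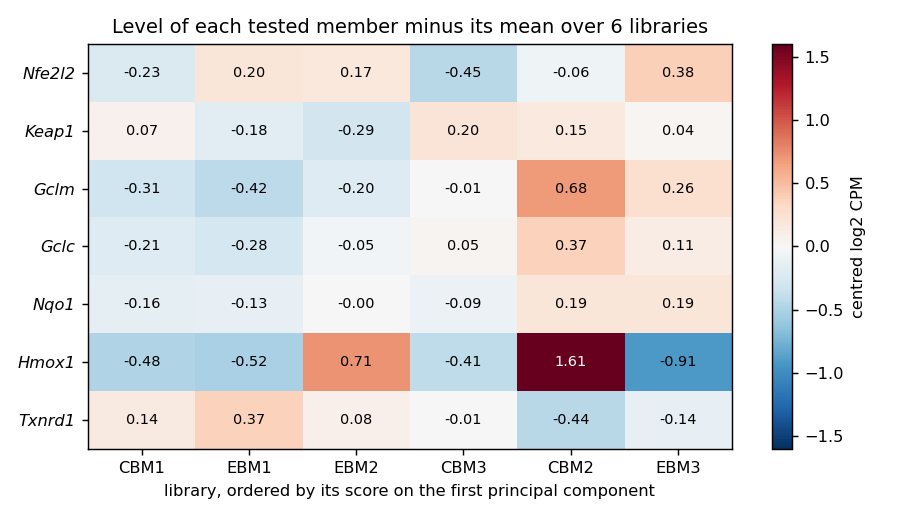
Level of each tested gene (rows) in each library (columns, ordered by score on the first principal component) as log2 CPM minus the gene's mean over the 6 libraries, with red above and blue below that mean. Gclm and Gclc are above their means in CBM replicate 2 and EBM replicate 3, where Txnrd1 is below. Nfe2l2 is below its mean in all CBM and above it in all EBM libraries, and within each region it is highest in these same libraries.

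Markers of other blood cells moved with some of these genes. The 8 erythroid markers, all tested, summed to 2454, 7879 and 3426 CPM in CBM against 3003, 4316 and 6145 CPM in EBM, with CBM replicate 2 and EBM replicate 3 highest as for Gclm and Gclc. Hbb-bs and Hbb-bt did not follow this in EBM, where replicate 3 was their lowest library. They had 1279, 1338 and 807 CPM and 81.3, 94.4 and 73.1 CPM there. Each other erythroid marker was highest in CBM replicate 2 and EBM replicate 3. The 7 neutrophil markers, also all tested, summed to 7.91, 226 and 3.32 CPM in CBM and to 49.2, 163 and 35.1 CPM in EBM, with replicate 2 of each region highest as for Hmox1. The 10 macrophage markers, of which 2 passed the filter, summed to 7.97, 9.95 and 5.76 CPM in CBM and to 6.57, 8.91 and 5.08 CPM in EBM, where replicate 2 of each region was again highest. Single macrophage genes differed in this, since Cd68, the most counted of them, had 109, 99 and 81 counts in CBM against 66, 66 and 54 in EBM, and Csf1r had 4, 21 and 2 against 3, 20 and 0. Nfe2l2 and Keap1 were split by region, but within the regions Nfe2l2 was also highest in CBM replicate 2 (95.9 CPM) and EBM replicate 3 (130 CPM). Keap1 was highest in CBM replicate 3 and, within EBM, in EBM replicate 3. The part of these cells in the levels of Gclm, Gclc, Hmox1, Nfe2l2 and Keap1 was not tested.

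**Figure D4:**
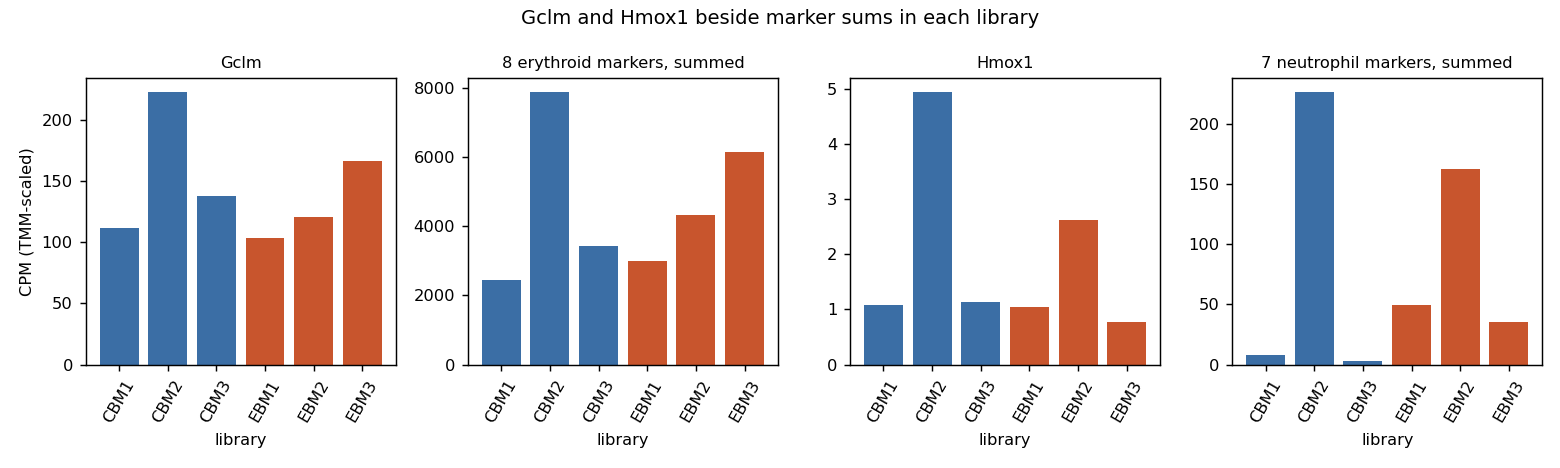
Level of Gclm, the summed erythroid markers, Hmox1 and the summed neutrophil markers (y axes, CPM, a scale for each panel, bars from 0) in each of the 6 libraries (x axes), with CBM in blue and EBM in orange. Gclm and the erythroid sum are highest in CBM2 and EBM3, and Hmox1 and the neutrophil sum are highest in CBM2 and EBM2.

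EBM libraries also went through collagenase, and genes known to respond to tissue dissociation were read beside the result for Nfe2l2. The 14 genes of that list summed to 9548, 6142 and 3341 CPM in CBM against 9078, 7121 and 7719 CPM in EBM. Fosb was the most counted of them in every library, with 3608, 2679 and 944 CPM in CBM against 5011, 3188 and 3404 CPM in EBM. Fos, Jun, Ier3 and Zfp36 leaned the other way or hardly at all, with log2 fold changes of -1.31, -0.10, -0.16 and -0.02. Apart from these and Dusp1, the genes of the list had log2 fold changes above 0. Whether this response had a part in the level of Nfe2l2 was not tested. Of the 14 genes, 10 overlapped between the regions, while Hspa1a, Hspa1b and Junb were higher and Dusp1 lower in all EBM libraries. Of all tested genes, 7.47% were higher and 7.65% lower in every EBM library than in any CBM library. The heat shock gene Hspa1b had 68 to 167 counts in CBM and 904 to 2033 in EBM, although its reads can be split with the near-identical Hspa1a, and Dusp1, a phosphatase gene, had 11993 to 23350 counts in CBM and 6222 to 8033 in EBM. Digestion and region cannot be told apart for Nfe2l2 either.

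Around these genes, 57 further genes of the pathway were read in 6 lists, of which 52 were tested. The lists were chosen with earlier results of these data known, so the counts of higher and lower genes in them are descriptions only. The 52 divided into 38 with higher and 14 with lower levels in EBM (median log2 fold change 0.10), beside 50.4% of all tested genes higher. Scaled by library size alone, 30 of the 52 were higher, where 36.5% of all tested genes were. At an unadjusted p under 0.05, 6 were higher and 2 lower, beside 4.01% and 3.90% of all tested genes, and none passed the adjusted threshold in edgeR's test. EBM lay wholly above CBM for 9 of the 52 and wholly below for 1, beside 7.47% and 7.65% of all tested genes.

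The 12 regulators had no common direction, with 6 higher and 6 lower and 5 of them at an unadjusted p under 0.05, beside 7.91% of all tested genes in either direction. Sqstm1, which encodes the autophagy receptor p62 that binds Keap1 and carries it to autophagosomes, was 323, 290 and 244 CPM in CBM against 540, 525 and 451 CPM in EBM. The regions did not overlap, at 0.82 on the log2 scale (adjusted p from edgeR 0.170), and it was called by DESeq2 (adjusted p = 7.41e-05), while over all 12 alternatives the adjusted p from edgeR or DESeq2 ran up to 0.699. Rbx1, the RING subunit of the ligase that marks Nrf2, was higher in EBM by 0.31 (edgeR adjusted p = 0.423) with no overlap, while Cul3, its scaffold, had a log2 fold change of -0.08. Bach1, the repressor at the antioxidant response element, had 90.7, 124 and 115 CPM in CBM against 64.6, 80.2 and 92.5 CPM in EBM. EBM replicate 3 was just above CBM replicate 1, and the log2 fold change was -0.48 (edgeR unadjusted p = 0.0285, adjusted p = 0.557).

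Nfe2, the erythroid relative of Nrf2 that shares its small MAF partners, was lower in EBM without overlap, with a log2 difference of -0.51 (adjusted p = 0.330, edgeR). Nfe2l1, another relative, had one of 0.20 (edgeR adjusted p = 0.709). Among the MAF partners, Maff had 50.4, 21.4 and 23.6 CPM in CBM and 66.6, 82.2 and 56.7 CPM in EBM, a log2 fold change of 1.11 (edgeR unadjusted p = 0.0150, adjusted p = 0.479). Mafg and Mafk had log2 fold changes of 0.22 and -0.07. These MAF genes were named after their values were seen.

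In the glutathione list 7 of 8 tested genes were higher in EBM (median log2 fold change 0.22), beside 50.4% of all tested genes. Of these 7, Gss and Gsr had log2 fold changes of only 0.001 and 0.018. Slc3a2, the heavy chain that pairs with Slc7a11 and other transporter chains, had means of 240 ± 42.9 CPM (CBM) and 320 ± 31.0 CPM (EBM; SD, n = 3 each), with a log2 fold change of 0.42 and no overlap (edgeR adjusted p = 0.565). The lipid peroxide reductase gene Gpx4 had a log2 fold change of 0.25 with no overlap (edgeR adjusted p = 0.658). Gstm1, a glutathione transferase, had one of 1.14 from levels of 0.854 ± 0.561 and 1.86 ± 1.77 CPM (SD, n = 3 each), which overlapped (edgeR adjusted p = 0.869).

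In the thioredoxin list 9 of 10 genes were higher, with a median of 0.14, beside 50.4% of all tested genes. Only 2 of them, Sesn2 and Prdx5, had an unadjusted p under 0.05 (edgeR). Sesn2, a sestrin that restrains mTORC1 and is known as a stress-response gene, had 15.4, 16.8 and 14.4 CPM in CBM against 23.4, 23.8 and 22.9 CPM in EBM. The gap between the regions was wider than the spread within either, with a log2 difference of 0.59 (adjusted p = 0.226, edgeR). It was called by DESeq2 (adjusted p = 0.0118), the lowest of the 12 alternatives, which ran up to 0.917 in the edgeR fits. The peroxiredoxin gene Prdx5 had a log2 fold change of 0.24 with no overlap (edgeR adjusted p = 0.596). Mitochondrial Txn2 and cytosolic Txn1, the thioredoxin that Txnrd1 serves, had log2 fold changes of 0.19 and 0.11.

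The other lists held no gene at an unadjusted p under 0.05. In NADPH supply, all 5 tested genes were higher in EBM, beside 50.4% of all tested genes. Their log2 fold changes lay between 0.02 and 0.10. Among them were G6pdx at the entry of the pentose phosphate pathway and Tkt and Taldo1 in its later steps. In heme and iron, the ferritin genes Fth1 and Ftl1 had log2 fold changes of 0.16 and 0.25, and Alas1, for the first enzyme of heme synthesis outside red cells, had one of -0.25. In detoxification and efflux, the values were 0.23 for Sod1, 0.11 for Sod2 and 0.21 for Aldh2. For each gene named from these lists the ranges of the regions overlapped.

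**Figure D5:**
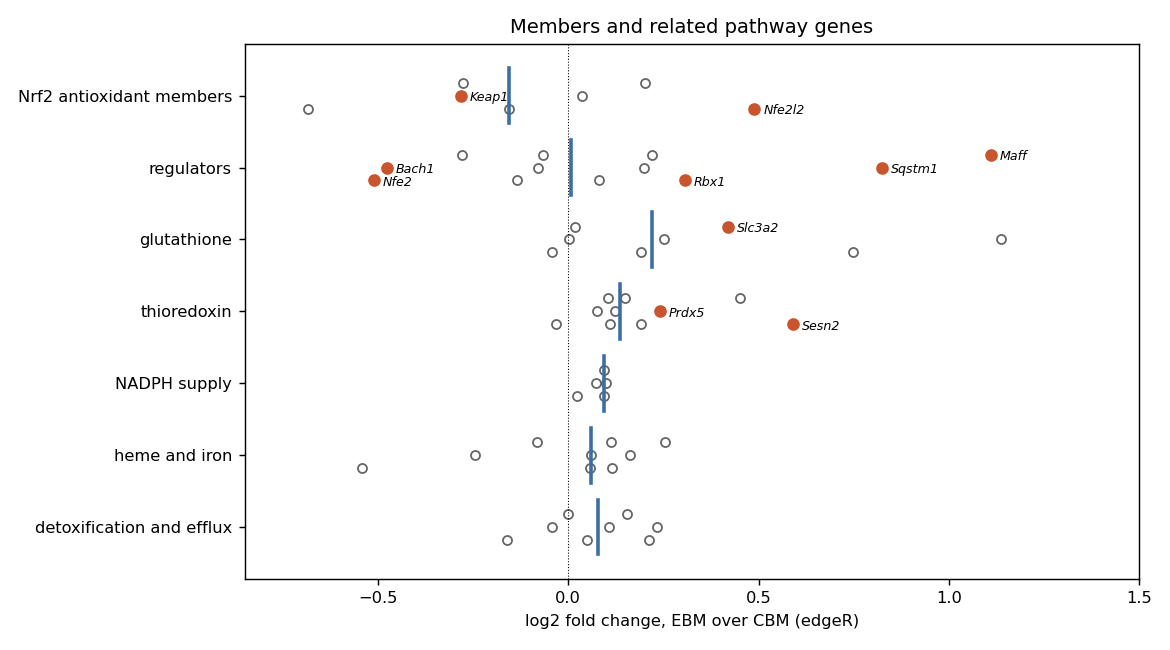
Log2 fold change of EBM over CBM (x axis, edgeR) for the 7 tested Nrf2 antioxidant genes and the 52 tested genes of 6 related lists (y axis), where a circle is a gene, a filled orange circle has an unadjusted p under 0.05 and is named, and a blue line is the median of the row. The filled circles sit in 4 of the 7 rows, and the median is -0.15 for the antioxidant genes and 0.22 for the glutathione list.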

How the data were processed

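The submitters' processing notes name HISAT2 2.0.5 and the genome build mm10. A directional kit was used on RNA depleted of rRNA, and the authors deposited unnormalized counts for each gene. The counting tool, annotation and strand setting are not given in the sources used here. Gene coordinates equalled those of GENCODE M21 (GRCm38) for all 10 genes and for 98.3% of the identifiers shared. The deposited gene length was used as given.

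Counts were filtered with filterByExpr, TMM-normalized and tested by edgeR 4.0.16 (R 4.3.3; quasi-likelihood F-test, 2 groups, no block) with Benjamini-Hochberg adjustment over 13352 genes at 0.05. CPM were scaled by TMM, and log2 CPM used a prior count of 2. Single values were compared by an exact permutation test over the 20 relabellings of the 6 libraries. Alternatives were DESeq2 1.42.0, other scalings and filters, a replicate block and each library left out. The test scripts were checked on simulated data. No pair of libraries of a region agreed within sampling noise (chi-square per degree of freedom at least 13.1).

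The genes and lists were chosen with earlier results of these data known. From each pathway list the 3 genes with the smallest p were named, besides Bach1, Sqstm1, Nfe2l1, Cul3, Slc3a2, Txn1 and Fth1, and others are said to be named after their values were seen.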

Additional observations from a re-analysis of the deposited data

How the results depend on the processing

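The 0 genes called by edgeR (1056 at an unadjusted p under 0.05) became 175 with DESeq2, of which 131 were higher in EBM, and 40 when every gene with at least 1 count was tested, of which 38 were higher. None of the 10 antioxidant genes was among them. With each library left out in turn, between 2 and 6 of the 7 tested genes were higher in EBM and their median log2 fold change ran from -0.28 to 0.063, with both highest values reached without CBM replicate 2. In these same fits Hmox1 ran from -1.38 to 0.42, Gclm from -0.50 to 0.063, Gclc from -0.28 to 0.012 and Nqo1 from -0.064 to 0.15. Scaling by library size alone turned Nqo1 to -0.036, left 2 of the 7 genes higher, and shifted the median of all genes to -0.07. Nfe2l2, Keap1 and Txnrd1 kept their sign in all 12 alternatives. For Nfe2l2 and Keap1, whose ranges did not overlap, leaving out 1 library could hardly have turned it.

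With the replicate number as a block, 0 genes were called, and the log2 difference was 0.49 for Nfe2l2 (adjusted p = 0.486, edgeR) and -0.29 for Keap1 (adjusted p = 0.518). Deviations of same-numbered libraries correlated across genes with r of 0.68, -0.20 and 0.20 for numbers 1 to 3. Among differently numbered libraries, r ran from -0.67 (CBM replicate 1 with EBM replicate 3) to 0.51 (CBM replicate 2 with EBM replicate 3). Whether same-numbered libraries share a mouse is not known, so the numbers were not used to pair them. The counts of the pathway lists under these alternatives, between 30 and 40 of 52 genes higher in EBM, were added after seeing the data. Depth limits Srxn1, Osgin1 and Slc7a11, which had at most 21 counts in any library.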
